A study of Drosophila melanogaster with 18 samples.

Results

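The elements blood, '412', mdg3, Stalker, Stalker2 and Stalker4 are LTR retrotransposon families of Drosophila melanogaster. They were taken by their exact FlyBase names from the transposon rows of the RNA table and of the ChIP table, and all 6 names had a row in both: blood (FBgn0000199), '412' (FBgn0000006), mdg3 (FBgn0002698), Stalker (FBgn0003519), Stalker2 (FBgn0063455) and Stalker4 (FBgn0063897). They are 6 of 119 D. melanogaster transposons and of 16955 features compared. The study knocked down genes in ovarian somatic cells (OSCs), a cultured line derived from fly ovarian follicle cells. RNA was sequenced 2 days after knockdown of EGFP (the control, a sequence foreign to the fly), piwi, mael or brm. DNA bound by the proteins Brm, Polybromo and Osa was sequenced 2 days after knockdown of EGFP or piwi. Brm and Polybromo shared 1 input library (DNA sequenced without immunoprecipitation) per condition, and Osa had its own. With 1 library per group, no p-value can be given, and the intervals printed below cover counting error only, not the spread between cultures. All cells are of a single cultured line, and every library, controls included, comes from cells that had undergone a knockdown. 4 ovary libraries were not analysed here. The element '412' is written in quotation marks because its name is a number.

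LTR retrotransposons copy themselves through an RNA that is reverse transcribed and integrated elsewhere in the genome. All 6 belong to the gypsy superfamily. Within it, '412', blood and the Stalker elements are close relatives of mdg1, while mdg3 stands in a separate group. In follicle cells, the nuclear protein Piwi, guided by piRNAs, silences such elements at the level of transcription. Maelstrom (Mael) is a further protein needed for that silencing. The SWI/SNF complexes, which remodel chromatin, draw on the ATPase Brahma (Brm). Osa marks one form of the complex (BAP) and Polybromo the other (PBAP).

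The RNA libraries held 4865534 (Brm knockdown) to 9498401 reads (Mael knockdown), and the ChIP and input libraries 475226 to 2779826. The RNA of each target had its minimum where that target was knocked down. piwi RNA went from 81.5 to 11.0 RPKM (reads per kilobase of feature, scaled to library size), mael from 14.5 to 4.20 and brm from 6.66 to 0.540. piwi was also lower in the Brm knockdown, at 21.3 RPKM, and stood at 57.7 RPKM in the Mael knockdown. Of 8 markers of the somatic lineage, which include piwi and mael themselves, all were detected in all 4 RNA libraries, with a summed level of 176 RPKM (Brm knockdown) to 317 RPKM (control). Of 9 germline markers matched, 7 lay under 1 RPKM in the control, with osk and otu at 0, and their summed level was 6.03 to 8.69 RPKM. The highest of them in the control were del (5.21 RPKM) and rhi (1.70 RPKM). Each value covers a family as a whole. A family has no single position in the genome, and its value does not tell which copies were transcribed. In these bulk cultures, fewer expressing cells and less RNA per cell cannot be told apart.

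The feature lengths behind the RPKM values, found from the steps between values, were 7410 bases for blood, 7567 for '412', 5519 for mdg3, 7256 for Stalker, 7672 for Stalker2 and 7359 for Stalker4. RPKM values are per length and can be compared between the elements. How the authors assigned reads that match several elements is not given in the sources used here, so reads may be split between related families such as Stalker and Stalker4.

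In control cells the 6 elements covered a wide range of RNA levels. blood was highest at 250.5 RPKM (95% interval 245 to 256, counting error only). Its rank among the 119 transposons was 4. mdg3 and Stalker2 stood at the same level, 23.6 RPKM each, with intervals of 21.7 to 25.6 and 22.0 to 25.3. '412' had 1.57 RPKM (1.18 to 2.06), Stalker 1.09 (0.761 to 1.51) and Stalker4 0.968 (0.662 to 1.37). The intervals of these last elements overlapped, so their order is not resolved at this depth. Together the 6 families took 0.219% of the control's reads, and blood alone held 84.6% of that share.

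blood RNA measured 250.5 RPKM in the control and 1043 without Piwi, against 495 without Mael and 41.9 without Brm. The order of the 4 libraries was therefore Brm, control, Mael and Piwi from low to high, with no overlap of their counting intervals. Stalker2 had the same order, with 23.6, 80.1, 41.3 and 5.44 RPKM in the control, Piwi, Mael and Brm libraries. '412' had it too at a lower level, with 1.57, 10.7, 5.22 and 0.217 RPKM. Its last value rests on 8 reads. mdg3 had 23.6, 59.1, 40.2 and 21.7 RPKM. It was thus higher in the Piwi and Mael libraries, while its interval in the Brm library (19.3 to 24.3) overlapped that of the control. Stalker measured 1.09, 2.32, 1.44 and 0.878 RPKM, and Stalker4 measured 0.968, 2.32, 1.24 and 1.12 RPKM. For both, the Piwi library was the highest and the intervals of the other 3 overlapped. For Stalker the interval in the Piwi library (1.83 to 2.91) also overlapped that in the Mael library (1.06 to 1.90).

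**Figure D1:**
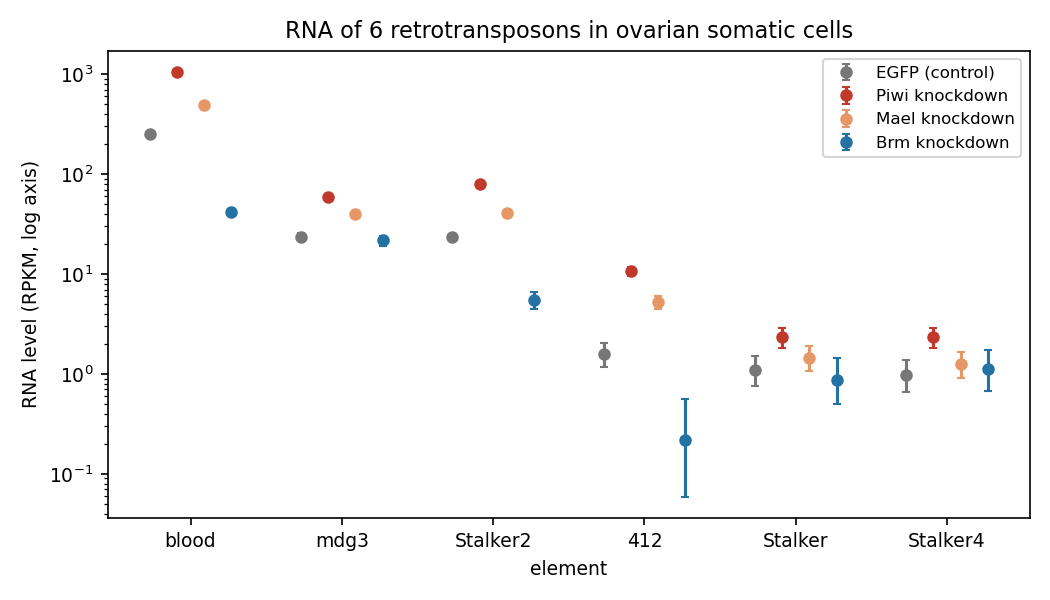
RNA level of the 6 elements (x axis) in RPKM on a log axis, 1 point per library, with exact Poisson 95% intervals on fragments (counting error only). The Piwi knockdown is highest for all 6, while the Brm knockdown is far under the control for blood (41.9 against 250.5 RPKM), Stalker2 and '412' but not for mdg3 (21.7 against 23.6 RPKM).

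The first comparison asks which elements had more RNA without Piwi. Without Piwi, blood was 4.16-fold higher than in the control, a log2 ratio of 2.06 (interval 2.02 to 2.09). Stalker2 was 3.39-fold higher (1.76, interval 1.65 to 1.88) and mdg3 2.50-fold higher (1.32, interval 1.18 to 1.46). These 3 elements had over 5 RPKM in the control itself. '412' was 6.81-fold higher (2.77, interval 2.35 to 3.21), from 107 reads to 727. Stalker was 2.13-fold higher (1.09, interval 0.50 to 1.71) and Stalker4 2.40-fold higher (1.26, interval 0.65 to 1.90), from 71 and 64 reads in the control. All 6 intervals lay above 0.

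For calls across all features, 1 RPKM was added to both values and a mean of both libraries of at least 5 RPKM was required. A feature was called at a 2-fold difference on that scale. Without Piwi, 1.18% of the 5357 features tested were called higher. blood (2.05), Stalker2 (1.72), mdg3 (1.29) and '412' (2.19) were called higher. '412' reached the floor only through its level without Piwi, so its call follows in part from the floor. Stalker (0.67) and Stalker4 (0.75) stayed under the floor. Relative to the median feature, where 1.25% of features were called higher and 0.411% lower, the same 4 elements were called. As deposited, 0.467% were lower and none of the 6 elements was. Among the 33 transposons tested, '412' ranked 5, blood 6, Stalker2 8 and mdg3 9 from the highest, and 11 of the 33 (33.3%) were called higher. The median over all 6 elements was 1.5 (1.54 with no pseudocount), beside 0.31 over the tested transposons and -0.04 over all features tested. The first of these medians includes Stalker and Stalker4, which were under the floor. The tested transposons all reached it, and they include the 4 elements called.

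**Figure D2:**
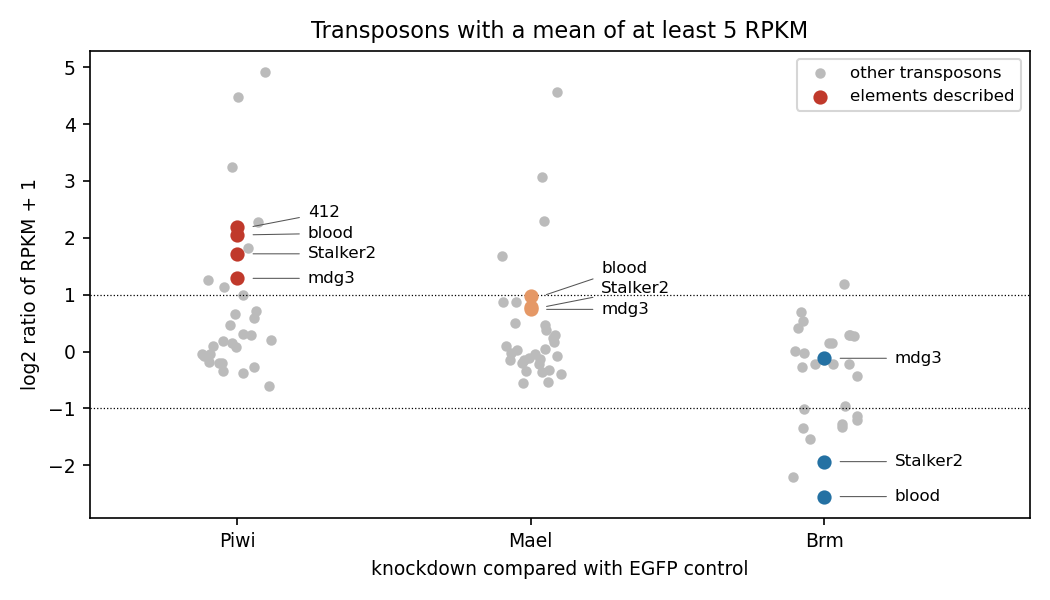
log2 ratio of RPKM + 1 to the EGFP control for every transposon with a mean of at least 5 RPKM over both libraries, by knockdown, 1 point per transposon; the named elements are coloured and dotted lines mark 2-fold. Without Piwi, '412', blood, Stalker2 and mdg3 lie above the upper line, without Mael blood lies just under it (0.98), and without Brm blood (-2.55) and Stalker2 (-1.94) lie under the lower line.

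The second comparison asks whether the same elements are higher without Mael. blood was 1.98-fold higher (log2 0.98, interval 0.94 to 1.02), Stalker2 1.75-fold (0.81, interval 0.68 to 0.93) and mdg3 1.70-fold (0.77, interval 0.62 to 0.92). '412' was 3.31-fold higher (1.73, interval 1.28 to 2.2) with 375 reads, but its mean of 3.40 RPKM lay under the floor. The intervals of Stalker (0.40, from -0.25 to 1.06) and Stalker4 (0.36, from -0.33 to 1.07) included 0. At 2-fold, 0.397% of the 5292 features tested were called higher, and 0.416% lower, and none of blood, Stalker2 and mdg3 was called either way, with blood at 0.98 just under the threshold. The median feature lay at -0.12 in this comparison. Relative to it, blood stood at 1.10 and was called, where 0.699% of features were higher and 0.302% lower, while Stalker2 (0.90) and mdg3 (0.86) were not. That centring moved the calls over all features from 21 higher and 22 lower to 37 and 16.

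The Mael library held less RNA of each element than the Piwi library. Its level was 47.4% of the Piwi level for blood, 48.7% for '412', 51.5% for Stalker2, 53.7% for Stalker4, 61.9% for Stalker and 68.0% for mdg3. The log2 ratio of the Mael to the Piwi library was -1.08 for blood (interval -1.10 to -1.05), -1.04 for '412' (-1.30 to -0.78) and -0.96 for Stalker2 (-1.05 to -0.86). mdg3 had the smallest difference, at -0.56 (-0.67 to -0.44). The intervals of blood and mdg3 did not overlap. The knocked-down genes kept different shares of their RNA: the Piwi library held 0.134 of the control's piwi RNA, and the Mael library 0.289 of its mael RNA. Their part in the difference between the libraries was not tested.

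The third comparison asks which elements had less RNA without Brm, in cells where piwi was not targeted but its RNA was also lower (21.3 against 81.5 RPKM). Without Brm, blood was 5.97-fold lower (log2 -2.58, interval -2.69 to -2.47) and Stalker2 4.34-fold lower (-2.12, interval -2.43 to -1.82). '412' went from 107 reads to 8, a log2 ratio of -2.86 with a wide interval of -4.78 to -1.42. The interval of mdg3 (-0.12, from -0.33 to 0.08) included 0, as did those of Stalker (-0.31, from -1.27 to 0.59) and Stalker4 (0.21, from -0.68 to 1.06). The intervals of blood and Stalker2 on one side and mdg3 on the other did not overlap.

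At 2-fold, 10.8% of the 5083 features tested were called lower and 1.99% higher without Brm, and blood (-2.55) and Stalker2 (-1.94) were among them while mdg3 (-0.12) was not. Of the 29 transposons tested, 10 (34.5%) were called lower, or 5 (17.2%) relative to the median feature, with blood the lowest and Stalker2 at rank 3 from the lowest. The median feature lay at -0.34, and relative to it blood (-2.21) and Stalker2 (-1.60) were still called, where 4.13% of features were lower and 3.86% higher. On that scale mdg3 stood at 0.22. The centring moved the calls over all features from 101 higher and 548 lower to 196 and 210. '412', Stalker and Stalker4 were under the floor. The median over all 6 elements was -0.62, and -1.21 with no pseudocount, since the added 1 RPKM shrinks the ratios of the 3 elements under the floor. The median over the tested transposons, all above the floor, was -0.21 with the pseudocount. The Brm library also held 0.261 of the control's piwi RNA, and transposons took 19.9% of its reads, against 11.9% in the control. The part of these in the lower values was not tested. With transposons left out of the library totals, blood stood at -2.42 and Stalker2 at -1.84, while mdg3 stood at 0.01.

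**Figure D3:**
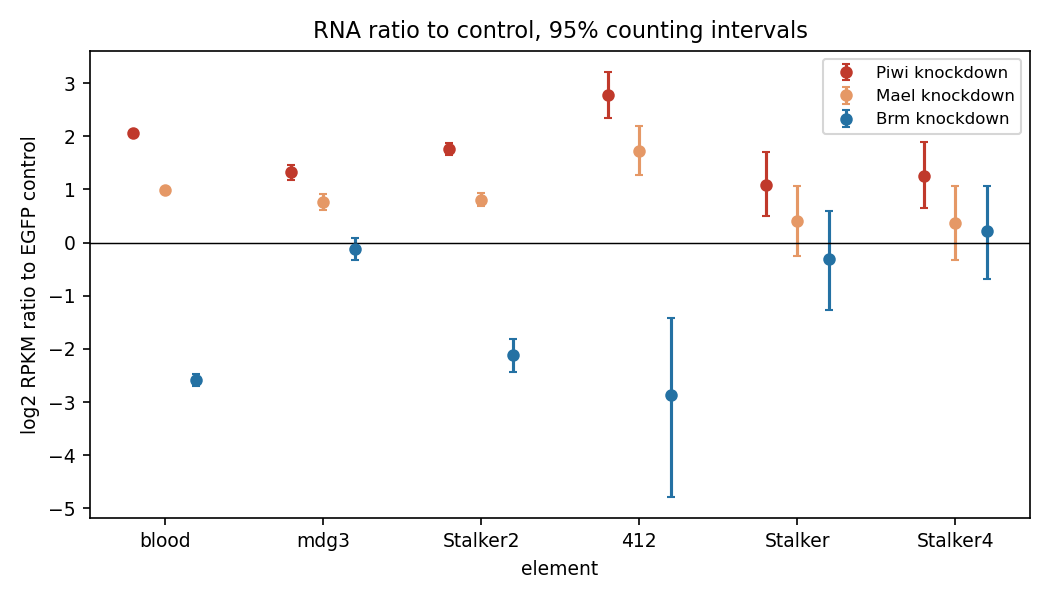
log2 ratio of RPKM to the EGFP control, with no pseudocount, for the 6 elements (x axis) in the 3 knockdowns; bars are 95% Clopper-Pearson intervals on fragments, which cover counting error only. The Brm values of blood (-2.58), Stalker2 (-2.12) and '412' (-2.86) lie far from 0, and those of mdg3, Stalker and Stalker4 have intervals that include 0.

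The ratios between elements changed with the knockdown. The ratio of blood to mdg3 was 10.6 in the control, 17.7 without Piwi, 12.3 without Mael and 1.93 without Brm. mdg3 and Stalker2 also separated. At equal levels in the control (ratio of mdg3 to Stalker2 0.999), they stood at 0.973 in the Mael library, 0.738 in the Piwi library and 3.99 in the Brm library. blood and Stalker2 kept closer proportions, with a ratio of blood to Stalker2 of 10.6 in the control, 13.02 without Piwi, 11.99 without Mael and 7.71 without Brm. The ratio of Stalker to Stalker4 was 1.13 in the control, 1.001 without Piwi and 1.15 without Mael, and at a ratio of 0.786 without Brm, on 31 and 40 reads.

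The features most like each element were sought over the 4 RNA libraries, as the smallest distance between their sets of 3 log2 ratios to the control, relative to the median feature. The search ran over 5203 features with a mean of at least 5 RPKM, of which 30 were transposons. For blood the nearest was the transcript NR_125084 (distance 0.156), with 25.6, 108, 46.2 and 3.47 RPKM in the control, Piwi, Mael and Brm libraries. This identifier had no name in the RefSeq table used. It had 3 rows, which were summed. The sum was 39.0 RPKM in the control input of Brm and Polybromo and 16.6 RPKM in that of Osa. The median gene with 1 transcript had 5.31 and 9.34 RPKM there. Such a gene has a single row, so a sum of 3 rows overstates the difference. The next were gypsy (0.430), an element with an envelope gene, and CG15209 (0.986). For Stalker2 they were gypsy (0.302), CG15209 (0.461) and NR_125084 (0.715), so the same 3 features were nearest to both. CG15209 had only 2.96 RPKM in the control and 0.260 in the Brm library. These ratios have 1 RPKM added, which shrinks its Brm ratio, so its nearness rests in part on that addition. For mdg3 the nearest features were CG14074 (0.165), CG31898 (0.226) and CG33229 (0.282). CG14074 had 4.26, 10.5, 7.88 and 3.94 RPKM in the control, Piwi, Mael and Brm libraries, low levels at which counting error is larger. '412', Stalker and Stalker4 were under the minimum level for this search. All these ratios share the control library.

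Among relatives, mdg1 is the other listed element of the blood, '412' and Stalker group. It went from 16.01 RPKM in the control to 513 without Piwi and 404 without Mael, and to 4.84 without Brm. Its log2 ratio of 4.57 without Mael stood beside 0.98 for blood and 0.78 for Stalker2, the other members of that group that reached the floor. micropia, listed with mdg3, had 0.184 to 0.482 RPKM in the 4 libraries, under the floor. Of 40 other gypsy-superfamily elements listed, 38 had a row and 14 were tested without Piwi, where 5 were called higher and 0 lower, with a median of 0.30. Without Mael 3 of 14 were called higher and 0 lower. Without Brm 0 of 11 were called higher and 5 lower, 2 of them relative to the median feature. The most abundant were springer (-0.08 without Piwi, -0.22 without Mael, -1.20 without Brm), gypsy (1.82, 0.87 and -2.21), Quasimodo (4.47, 3.08 and 0.15) and the '297' element (2.28, 1.68 and -1.27).

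The input libraries of the ChIP experiments give estimates of the DNA content of each family, which differed between the inputs. In the control input of Brm and Polybromo, blood had 244 RPKM, Stalker4 216, Stalker 196, mdg3 193, '412' 127 and Stalker2 72.9. The matching Piwi knockdown input gave 254, 208, 209, 211, 125 and 76.2 RPKM in the same order of elements, within 1.10-fold of the control for each. Against the median gene with 1 transcript, these are 46.0-fold for blood, 40.6-fold for Stalker4, 37.0-fold for Stalker, 36.4-fold for mdg3, 23.9-fold for '412' and 13.7-fold for Stalker2 in the control. Stalker and Stalker4 were close to mdg3 in both of these inputs, with mdg3 the lowest of these elements in the control and the highest in the Piwi knockdown, while their RNA in the control was lower than that of mdg3.

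RNA was also set against DNA content. RNA RPKM in the control over RPKM in the control input of Brm and Polybromo was 1.03 for blood, 0.324 for Stalker2, 0.122 for mdg3, 0.0124 for '412', 0.00555 for Stalker and 0.00449 for Stalker4. In the Piwi knockdown, over its own input, it was 4.10, 1.05, 0.279, 0.0857, 0.0111 and 0.0111 in that order. With the control input of Osa the control values were 2.28, 1.26, 0.224, 0.0364, 0.0248 and 0.0218, in the same order. The order of the first 4 elements was the same in both conditions, and Stalker2 stood above mdg3 by this measure though their RNA levels in the control were equal.

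The inputs of the Osa experiment gave other values. Its control input had 110.0 RPKM for blood, 105.6 for mdg3, 44.4 for Stalker4, 43.9 for Stalker, 43.3 for '412' and 18.7 for Stalker2. Its Piwi knockdown input had 206 for blood, 154 for mdg3, 38.6 for Stalker4, 38.9 for Stalker, 39.8 for '412' and 37.9 for Stalker2. In both Osa inputs mdg3 stood well above Stalker and Stalker4. blood and Stalker2 thus differed by 1.87-fold and 2.02-fold between these inputs, and mdg3 by 1.46-fold, while Stalker, Stalker4 and '412' were at 0.870 to 0.919. The median over 92 transposons with at least 10 RPKM in every input was 1.26 (quartiles 1.01 and 1.58). Between the inputs of Brm and Polybromo the same median was 1.01 (quartiles 0.948 and 1.05). In control cells the input of Brm and Polybromo exceeded that of Osa 4.86-fold for Stalker4, 4.47-fold for Stalker, 3.89-fold for Stalker2, 2.93-fold for '412', 2.22-fold for blood and 1.83-fold for mdg3. The median was 2.202 over the 92 transposons and 0.577 over 3738 genes with 1 transcript. The inputs therefore did not give one DNA content, and the fold over the median gene with the Osa control input was 11.8 for blood and 2.01 for Stalker2.

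**Figure D4:**
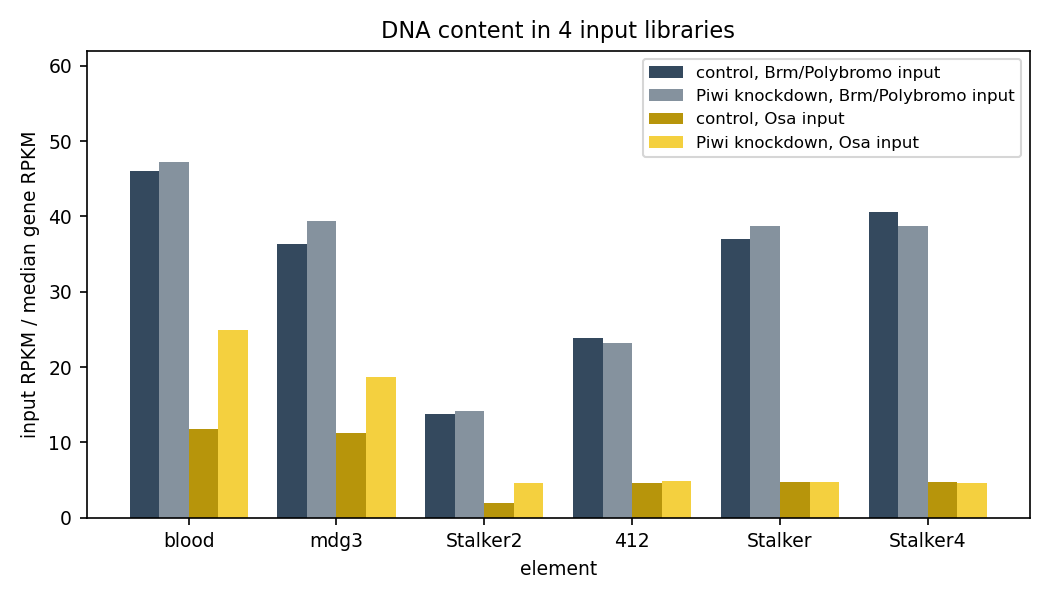
DNA content of the 6 elements (x axis), as RPKM over the median RPKM of genes with 1 transcript, in the 4 input libraries, 1 bar per library with no replicate. Both inputs of Brm and Polybromo are alike (46.0 and 47.3 for blood), while the Osa inputs are lower and differ from each other for blood (11.8 and 24.98), mdg3 and Stalker2.

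The ChIP experiments ask how the SWI/SNF subunits lie on these elements, and whether that changes without Piwi. Enrichment is log2 of ChIP over input, relative to the median of 8478 features kept for their input level. For Brm in control cells, blood had 179.5 RPKM in the ChIP and 244 in the input, an enrichment of -0.23 (interval -0.30 to -0.16, counting error only). Stalker2 stood at -0.13, mdg3 at -0.09, '412' at -0.43, Stalker at -0.45 and Stalker4 at -0.55. All 6 were under the median feature. The quartiles over all features were -0.31 and 0.34, and '412', Stalker and Stalker4 lay under the lower one. None passed 2-fold, where 4.53% of features were higher and 3.74% lower. mdg3, Stalker2 and blood, the elements with most RNA, ranked 24, 30 and 49 among 116 transposons, and '412', Stalker and Stalker4 ranked 99, 102 and 108. With the control input of Osa this order did not hold: mdg3 ranked 68 and blood 57, behind '412' at 41, Stalker at 11, Stalker4 at 10 and Stalker2 at 8.

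Polybromo in control cells, over its own input, gave values close to the median feature. mdg3 stood at 0.15 (interval 0.03 to 0.26), Stalker2 at -0.01, '412' at -0.17, blood at -0.19, Stalker at -0.21 and Stalker4 at -0.26. None passed 2-fold, where 3.55% of features were higher and 6.2% lower. The ranks among 116 transposons were 17 for mdg3, 41 for Stalker2, 87 for '412', 92 for blood, 97 for Stalker and 100 for Stalker4. With the control input of Osa, Polybromo stood at 1.94 at Stalker4, 1.87 at Stalker, 1.82 at Stalker2, 1.31 at '412', 0.97 at mdg3 and 0.91 at blood. With that input 4 of 6 passed 2-fold, but so did the median over the 116 transposons, at 1.05 (quartiles 0.71 and 1.56). mdg3 went from the highest to near the lowest of the 6.

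Osa over its own input was highest at Stalker2, with 76.7 RPKM in the ChIP and 18.7 in the input, an enrichment of 3.21 (interval 2.95 to 3.47). It ranked 2 among 102 transposons. blood followed at 2.37 (2.26 to 2.49), then Stalker4 at 1.85, '412' at 1.63, Stalker at 1.43 and mdg3 at 1.20. All 6 passed 2-fold, as did 19.1% of all features and 63.7% of the 102 transposons. These values depended on the input. With the control input of Brm and Polybromo, Stalker2 stood at 0.40, blood at 0.29, mdg3 at -0.60, '412' at -0.82, Stalker4 at -1.33 and Stalker at -1.62. Thus 0 of 6 passed 2-fold upward and 4 turned to the other side of the median feature. The median over the 102 transposons with that input was also under the median feature, at -1.0 (quartiles -1.36 and -0.38). With the Osa input, Brm enrichment in turn went to 1.70 at Stalker2, 1.65 at Stalker4, 1.63 at Stalker, 1.05 at '412', 0.88 at blood and 0.74 at mdg3. The median over 116 transposons was 0.87 there. Stalker2 and blood were the highest of the 6 for Osa with either input, and ranked 11 and 12 among 102 transposons with the other one.

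**Figure D5:**
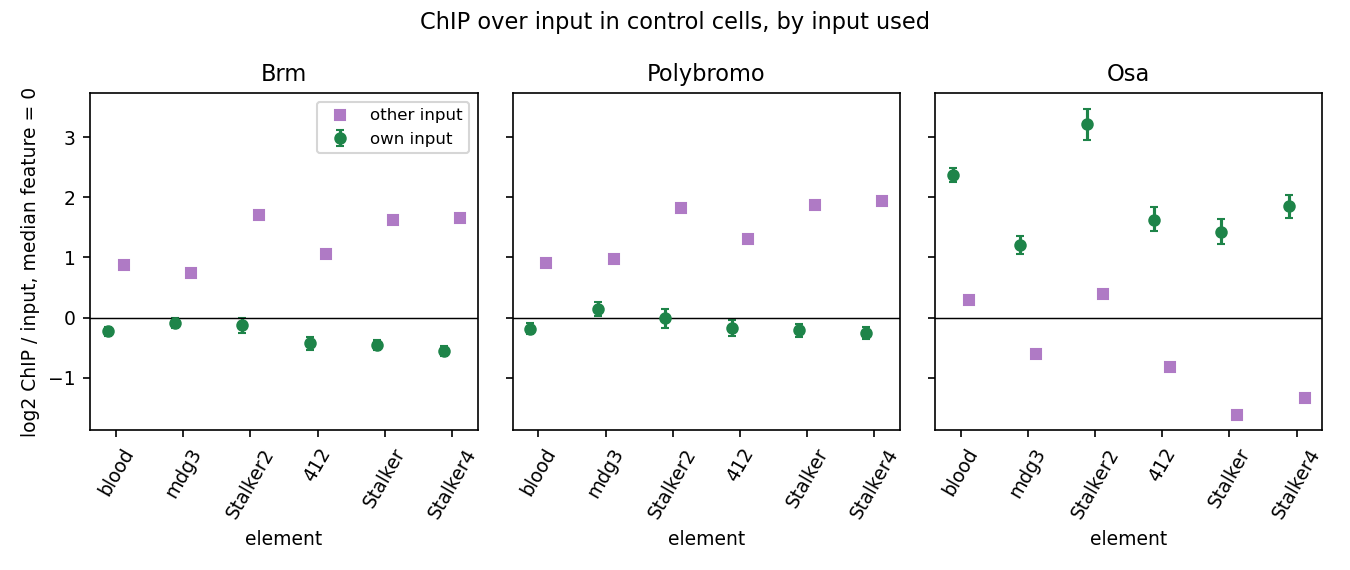
ChIP over input in control cells as log2 relative to the median feature, for Brm, Polybromo and Osa at the 6 elements (x axis), with the antibody's own input (circles, 95% counting intervals) and the other input of the control cells (squares). The Osa values fall from 3.21 to 0.40 at Stalker2 and from 1.43 to -1.62 at Stalker, and the Brm and Polybromo values are higher with the other input at all 6 elements.

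On Piwi knockdown, Brm over input at blood was higher by 0.33 relative to the median feature (interval 0.21 to 0.44). '412' was higher by 0.26 (0.09 to 0.42) and Stalker2 by 0.23 (0.02 to 0.44). mdg3 (-0.05), Stalker (-0.10) and Stalker4 (0.08) had intervals that included 0. None reached 2-fold, where 6.38% of features were higher and 8.24% lower. The quartiles over 115 transposons were -0.06 and 0.24. The ChIP libraries alone, with no input, gave 0.42 at blood (interval 0.34 to 0.50), 0.33 at Stalker2 (0.19 to 0.47) and 0.27 at '412' (0.15 to 0.39), which ranked 6, 16 and 23 among these transposons. mdg3 stood at 0.12 (0.02 to 0.23), Stalker4 at 0.06 and Stalker at 0.02. With the inputs of Osa, however, blood stood at -0.74 and Stalker2 at -0.88, and '412' at 0.13.

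Polybromo over input was higher at blood by 0.30 (interval 0.17 to 0.43) on Piwi knockdown, and at mdg3 by 0.09 (-0.07 to 0.25). It was lower at Stalker, by -0.33 (-0.49 to -0.18), while Stalker2 (-0.06), Stalker4 (-0.15) and '412' (-0.18) had intervals that reached 0. None reached 2-fold, where 8.72% of features were higher and 9.21% lower. blood ranked 14 among 115 transposons, and with no input it ranked 8, at 0.39. With no input, mdg3 stood at 0.25 (0.14 to 0.37) and Stalker at -0.21 (-0.34 to -0.09). '412' was at -0.17 (-0.32 to -0.02) and Stalker4 at -0.16 (-0.28 to -0.05) by that measure. The median over the 115 transposons was -0.16 with the own inputs and also with no input. Stalker2, whose Brm value moved with that of blood, stood at 0.03 for Polybromo with no input. With the inputs of Osa the Polybromo change was -0.77 at blood, -0.55 at mdg3 and -1.18 at Stalker2, which turned the direction at blood and mdg3 and put Stalker2 past 2-fold.

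Osa over its own input was lower on Piwi knockdown at Stalker2 (-0.74, interval -1.11 to -0.38), blood (-0.67, interval -0.84 to -0.51) and mdg3 (-0.49, interval -0.71 to -0.26). '412' (0.20), Stalker (0.01) and Stalker4 (-0.21) had intervals that included 0. None reached 2-fold, where 29.0% of features were higher and 27.1% lower. Over 108 transposons the median of this change was -0.52 (quartiles -0.93 and -0.10), and 21.3% of them were 2-fold lower. Stalker2, blood and mdg3 ranked 72, 69 and 54 among them from the highest, so their lower values were not particular to them. The first 3 are the elements whose Osa input was higher in the Piwi knockdown. Osa ChIP values in RPKM were higher in the Piwi knockdown at these elements, and also at '412' (1.45-fold), Stalker (1.21-fold) and Stalker4 (1.02-fold). The median over 92 transposons was 1.15-fold (quartiles 1.05 and 1.39). Osa ChIP went from 238 to 376 RPKM at blood, from 76.7 to 121 at Stalker2 and from 100.5 to 142 at mdg3. With no input, the changes relative to the median feature were 0.33 at blood and at Stalker2, 0.21 at '412' and 0.17 at mdg3. Stalker (-0.04) had an interval that included 0, while Stalker4 stood at -0.29. The median over 108 transposons was -0.12 by this measure. The sign of the Osa change at blood, Stalker2 and mdg3 therefore depended on the use of the Osa inputs, and at mdg3 also on the centring. With the inputs of Brm and Polybromo the change was 0.44, 0.43 and 0.20. With the Osa inputs but relative to the median transposon, it was -0.16, -0.23 and 0.03.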

How the data were processed

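The authors deposited RPKM values, a unit inferred from the steps between values, in a table of RNA and a table of ChIP and input with 35502 rows each. The submitters' processing notes name Bowtie2 (version 2.2.4) and the genome build dm6, with no role. The counting rule is not given in the sources used here. Columns were joined to samples by title. A further 4 value columns, all of RNA, carry the name of none of the samples and stayed out. Of 18 samples listed, 4 ovary libraries were not analysed here.

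Library totals were found from genes with 1 transcript, and feature lengths (20 to 80000 bases) as the shortest that made all values whole reads within 0.01. These steps, the fold rule and the ChIP change were tested on simulated data, where the fold rule recovered nearly all changed genes in RNA but, for the ChIP change, missed some and also called unchanged features. In RNA, 62.9% to 69.5% of features had even numbers of reads, so 2 reads were counted as 1 fragment for intervals. Intervals are at 95%, Clopper-Pearson for RNA ratios, exact Poisson for levels, and normal intervals of log read ratios for ChIP. They cover counting error only.

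Transcript values were added up per gene after 34925 transcript rows had been matched to the RefSeq table of Release 6, with 402 unmatched. Transposons of other species stayed out. RNA was compared as log2(RPKM + 1) at a floor of 5 RPKM on the mean of both libraries and a fold of 2, a scale that understates changes of low features. The report's intervals belong to log2 ratios without the added 1. ChIP enrichment added to both terms a small constant (percentile 5 of the nonzero input) and kept features with inputs at or above the median. Named are the 6 elements, the targeted genes and the 4 most abundant other listed elements. Also named are the 3 nearest features, outside the 6 elements, of each element that reached the search minimum (blood, mdg3 and Stalker2). The listed relatives mdg1 and micropia and the markers del, rhi, osk and otu are named from the lists as well. The elements and lists were chosen with earlier results of these data known. Alternatives were another pseudocount, floor, fold, scaling, transcript choice and input. Python 3.11.15, pandas 2.3.3, numpy 2.4.6 and scipy 1.17.1 were used.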

Additional observations from a re-analysis of the deposited data

How the results depend on the processing

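No paired analysis was possible because each group held 1 library, and for the same reason no replicate could be left out. In RNA, the values of blood, '412' and Stalker2 in all 3 knockdowns and of mdg3 in the Piwi and Mael knockdowns kept their sign under all 7 alternatives, as did the Piwi and Mael values of Stalker and all 3 values of Stalker4. The sign without Brm was not kept for mdg3 (-0.12 to 0.22) and Stalker (-0.28 to 0.18). The count of elements called higher without Mael was 0. It was 1 with a floor of 1 RPKM and with no floor, where '412' (1.27) was called and blood (0.98) was not. It was also 1 with the median set to 0 and with median-of-ratios scaling, where the element called was blood (1.10 and 1.11). 0.1 RPKM added in place of 1 moved '412' without Brm from -1.08 to -2.40.

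Counts over all features moved with the floor, fold and scaling. Without Piwi, 63 higher and 25 lower became 147 and 102 (floor of 1 RPKM), 198 and 148 (no floor) and 291 and 193 (fold of 1.5). Without Mael, 21 and 22 became 32 and 42 (0.1 RPKM added), 72 and 103 (floor of 1), 112 and 149 (no floor), and 129 and 242 (fold of 1.5). The higher calls were 37 with the median set to 0 and also with median-of-ratios scaling. Without Brm, 101 and 548 became 265 and 965 (floor of 1), 324 and 1080 (no floor), 196 and 210 (median set to 0), 174 and 253 (median-of-ratios), and 245 and 1573 (fold of 1.5). With no floor on input, ChIP changes past 2-fold went from 1240 to 3248 (Brm), 1520 to 3842 (Polybromo) and 4751 to 8046 (Osa).

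The median ChIP enrichment over the 6 elements depended on the input. For Brm it was -0.33, and 1.34 with the other input, 0.28 with the mean of both, -0.07 relative to the median transposon and -0.54 uncentred. For Polybromo it was -0.18, and 1.56, 0.55 and -0.35 with the other input, the mean of both and uncentred. For Osa it was 1.74, and -0.71 with the other input, 0.37 with the mean of both, 0.54 relative to the median transposon and 0.47 uncentred. Osa values past 2-fold that turned negative were those of '412' (-0.82), mdg3 (-0.60), Stalker (-1.62) and Stalker4 (-1.33) with the other input, Stalker (-0.31) with the mean of both and mdg3 (-0.07) uncentred. The median change on Piwi knockdown was 0.15 for Brm and -0.38 with the other inputs. For Polybromo it was -0.11, with -0.43 for the other inputs and 0.06 relative to the median transposon. For Osa it was -0.35, and 0.19 with no input, 0.29 with the other inputs, 0.09 uncentred and 0.17 relative to the median transposon. The cause of these shifts was not tested.

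Depth limits Stalker and Stalker4, with 31 to 153 RNA reads per library, and '412' without Brm, with 8.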
